A study of Mus musculus and Acomys cahirinus with 18 samples.

Results

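The kidney of the spiny mouse, Acomys cahirinus, on day 2 after its ureter was tied off was compared with the kidney of sham operated Acomys. The authors' deposited table of that comparison holds 1765 loci, of 13545 entries in all 4 comparisons of the series, and every listed locus was taken. Both groups were wild type adult males. The Acomys UUO day 2 group (unilateral ureteral obstruction, where blocking the left ureter makes urine back up into the kidney) had 3 libraries from animals aged 10.3, 10.3 and 14.3 weeks, and the Acomys sham group had 3 libraries at 14.3, 9.9 and 10.1 weeks. Kidneys were flushed with cold saline and flash frozen, and total RNA was sequenced on Illumina libraries. The labels number the libraries as replicates without saying that each is a separate animal, so the authors' error rates measure the spread between these libraries. Another pair of comparisons serves as context, Acomys UUO day 5, which uses the same sham libraries, and C57BL/6J mouse UUO day 2 against mouse sham, which shares no library with the Acomys data.

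Blocking the ureter raises pressure in the tubules, and the tubule epithelium is stretched, loses transport functions, dies in part and re-enters the cell cycle, while leukocytes enter and fibroblasts lay down matrix. In common laboratory mice that sequence usually ends in scarring. Spiny mice are known for regrowing skin, hair follicles and ear tissue with little scar, which is why their kidney is of interest.

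Every log2 fold change, logCPM (the authors' mean expression, log2 of CPM, the counts scaled to library size) and false discovery rate (FDR, an adjusted p-value) given here for a locus is its value in the authors' deposited table, with obstructed over sham as the direction. The tables hold no value per library, so the spread within a group and the overlap between groups cannot be shown, and read depth is unknown. A locus is listed at FDR under 0.05, and one that is not listed may have missed that threshold or never been tested. The logCPM is not corrected for transcript length, and it serves only to show how much signal stood behind a fold change.

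Obstruction was followed by rises far more often than by falls. A rise was listed for 1587 loci in the authors' deposited table, which is 89.9% of those listed (95% exact Clopper-Pearson interval 88.4 to 91.3%, counting error over loci only), and a fall for 178. The loci that rose had a median log2 fold change of 2.15 and those that fell one of -2.43. Over all loci the falls were weakly expressed, with a median logCPM of -0.18, against 2.96 for rises. Among loci with a gene symbol the medians lay close, at 3.33 for falls and 3.78 for rises. Falls also passed the threshold less clearly, with a median FDR of 0.0278 against 0.00629 for rises.

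How much a locus is annotated divided the falls from the rises. The authors gave 1121 loci a mouse gene symbol, and 96.3% of those rose, 1080 against 41 that fell. Another 155 loci carry a UniProt entry name but no symbol, of which 149 rose and 6 fell. The remaining 489 loci have a number alone, and 358 rose and 131 fell, so that 73.6% of the falls belong to loci without any name. Each symbol stands on 1 locus, yet loci with an entry name alone can belong to a gene that also has a symbol. Among loci with a symbol or entry name 96.3% rose, so a shared direction is the usual case and does not show that loci of 1 name behave alike. Of 53 entry names found on more than 1 locus, 52 moved in 1 direction at each of their loci. The exception was the tubulin name TBA1B, whose 3 loci include Tuba1b at 1.48 and, at -1.50, a locus to which the table assigns the symbol Ipcef1, so that name and symbol disagree there.

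**Figure D1:**
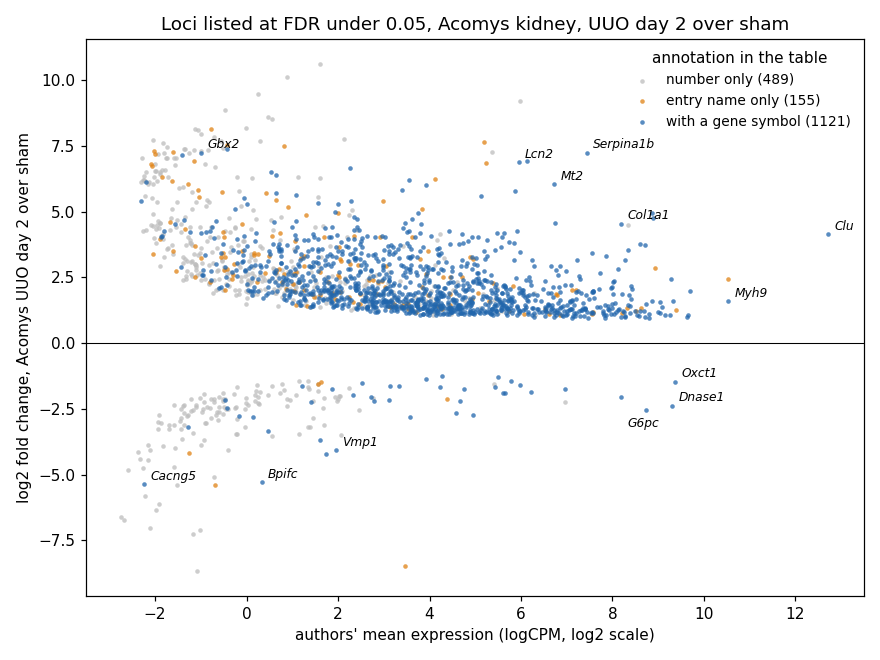
Log2 fold change of Acomys UUO day 2 over sham (vertical axis) against the authors' logCPM (horizontal axis) for the 1765 listed loci, coloured by annotation. Rises extend over the whole range of expression up to Clu at 12.72, whereas falls crowd below a logCPM of 0 and are mostly loci with a number alone; the band around 0 is empty because the table lists no locus short of the threshold.

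The kidney origin of the tissue can be read from the Acomys tables only in part. None of 10 kidney-defining markers was listed on day 2. On day 5 the table lists 4 of them with a high mean expression over the Acomys libraries, Umod (uromodulin, made by the thick ascending limb) at a logCPM of 10.17, Slc12a1 at 9.61, Aqp2 at 8.55 and Slc12a3 at 8.48. The authors' logCPM was identical on both days for each of the 1319 loci listed on both. In whole kidney RNA a lower value can come from fewer cells of a type or from less RNA per cell, and the 2 cannot be told apart, nor can a rise from arriving cells be told from induction in resident ones.

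Genes were grouped into 55 lists holding 1767 mouse genes, of which 25.6% were listed in Acomys on day 2. That share, and the 96.3% of symbol-bearing loci that rose, are the background against which the counts below stand. The median log2 fold change over all loci with a symbol was 1.88.

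The genes of the cell division cycle were the most completely represented. DNA is copied once per cycle by origin licensing factors, the MCM helicase and the polymerases, and is then divided by a spindle whose motors and checkpoint proteins are made mainly in G2 and mitosis. Among genes for DNA replication 38 of 49 rose and 0 fell (median log2 fold change 1.97), in the list for DNA repair it was 23 of 30 (median 3.09), for mitotic kinesins and spindle 37 of 44 (median 3.48), for centromere and checkpoint 42 of 48 (median 3.07), and for cyclins, CDKs and E2F factors 21 of 32 (median 2.93), each with 0 falls. These shares stand beside 25.6% of list genes listed overall. At the stricter FDR of 0.01 the 5 counts were 32, 21, 37, 38 and 18.

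In the replication group the highest rises belonged to regulators rather than to the polymerases. Clspn (claspin, which relays the replication checkpoint signal) had a log2 fold change of 4.80 in the authors' deposited table, Uhrf1 (which carries DNA methylation over to the new strand) 4.06, Mcm10 3.97 and Cdc6 (which loads the helicase) 3.58. The helicase subunits lay lower, at 3.26 for Mcm5, 3.17 for Mcm3, 3.08 for Mcm4, 2.49 for Mcm6, 2.11 for Mcm2 and 1.82 for Mcm7. The DNA polymerase alpha and primase genes were lower again, with 1.39 for Pola2, 1.36 for Prim2, 1.33 for Pola1 and 1.31 for Prim1, and Pcna, the sliding clamp, had 1.55. Other polymerase genes lay within the range of the helicase subunits, Pole at 2.96, Pole2 at 2.18 and Pold1 at 1.82. Genes of DNA repair were among the steepest, Neil3 (a DNA glycosylase) at 4.20, Exo1 at 4.04 and Brca1 at 3.64. Several of these had very small error rates, with a deposited FDR of 4.53e-06 for Mcm3, Mcm5 and Uhrf1.

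The mitotic genes rose further than the replication genes on the median. Depdc1a led with 5.73, at a low logCPM of 0.64, and was followed in the authors' deposited table by Nusap1 (a microtubule bundler) at 4.74, Spag5 (astrin) at 4.59 and Anln (anillin, of the cleavage furrow) at 4.25. Cenpa, the histone variant that marks centromeres, had a value of 4.40, Bub1b of the spindle checkpoint 4.24 and Birc5 (survivin) 4.07. The cyclins of S phase and mitosis, Ccna2 at 4.53 and Ccnb2 at 4.25, and their kinase Cdk1 at 4.20, were above Cdk4 at 1.16 and Cdk2 at 1.12, while the G1 to S genes Ccne1 at 3.08, E2f1 at 2.82 and Ccne2 at 2.02 lay between. Their transcription factors rose as well, E2f8 at 3.98, Foxm1 at 3.59 and Mybl2 at 2.99. Listed members thus included licensing, S phase, G2 and mitosis genes.

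Promoters of many such genes are known to carry a CCAAT box, bound by NF-Y, near a cell cycle homology region with the core TTTGAA, bound by MuvB complexes, of which DREAM represses them in resting cells. A mouse promoter window around the start site (RefSeq, GRCm38.p6) was at hand for 116 of the 138 risen genes of the replication, spindle, centromere and cyclin lists, 1 window per gene. CCAAT occurred in 63.8% of those windows on either strand and TTTGAA in 48.3%, against 37.9% and 18.1% of all 27025 promoters. Both were found in 37.9% of the windows of the risen cell cycle genes and in 7.12% of all promoters. Under 80% of all risen symbols, of the fallen ones and of the risen immediate early genes had a window, so these sets were not compared. The AP-1 pattern TGANTCA was found in 3.45% of the cell cycle windows and in 7.93% of all promoters. Both strands were searched, a CCAAT match and a TTTGAA match can share an end base, and a match does not show a bound site.

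The 4 risen genes with the largest change among those with both motifs upstream of the start are shown to let the arrangement be read. The mouse sequence is printed, since the Acomys promoter was not analysed here. Capitals mark CCAAT and TTTGAA, which read ATTGG and TTCAAA where the match lies on the opposite strand, and each line runs 5′ to 3′ along the gene's strand.
Depdc1a, chr3:159495369-159495432, plus strand: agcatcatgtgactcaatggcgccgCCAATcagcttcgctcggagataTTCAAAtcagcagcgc
Mki67, chr7:135716465-135716545, minus strand: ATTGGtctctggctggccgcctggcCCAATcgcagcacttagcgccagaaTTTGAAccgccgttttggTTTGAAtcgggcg
Cdk1, chr10:69352953-69353017, minus strand: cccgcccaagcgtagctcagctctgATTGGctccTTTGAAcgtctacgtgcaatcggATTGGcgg
Espl1, chr15:102296224-102296292, plus strand: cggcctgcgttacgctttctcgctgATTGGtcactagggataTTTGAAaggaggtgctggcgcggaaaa
Their log2 fold changes were 5.73, 4.27 (Mki67, a proliferation marker), 4.20 (Cdk1) and 4.05 (Espl1, separase). In these windows the nearest CCAAT and TTTGAA start 23, 25, 9 and 17 bases apart, in the same order.

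On day 5, measured against the same sham libraries, the deposited values of these genes stood lower. Over the 30 mitotic spindle genes listed on both days the median was 3.59 on day 2 and 2.14 on day 5, and each of the 30 had the lower value on day 5. For the 28 centromere and checkpoint genes listed on both days the medians were 3.65 on day 2 and 2.24 on day 5, and for the 23 replication genes 2.69 on day 2 and 1.95 on day 5. The difference between days was not tested, because the tables give no error for it. The plot of day 2 and day 5 values sets single genes side by side.

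**Figure D2:**
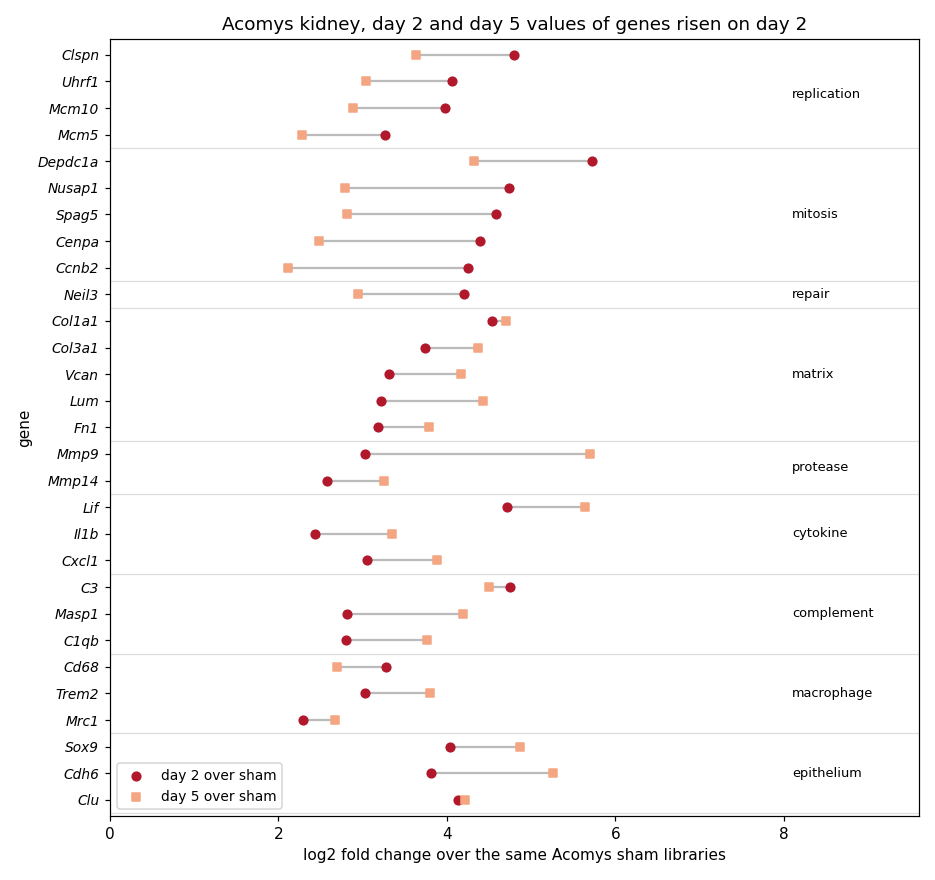
Log2 fold change over the same Acomys sham libraries on day 2 (circles) and day 5 (squares) for 29 genes that rose on day 2, in the groups named at the right. Replication, mitosis and repair genes such as Spag5 (4.59 on day 2, 2.82 on day 5) have their squares to the left of the circles. The matrix, protease and cytokine genes shown, such as Mmp9 (3.02 on day 2, 5.71 on day 5), have them to the right, and these are picked genes. Of all matrix glycoproteins listed on both days, 12 stood higher on day 5 and 7 lower. For collagens it was 13 higher and 2 lower, for collagen processing 4 and 3, and for matrix proteases and inhibitors 12 and 0.

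Supply of building blocks and chromatin packing moved less broadly. Of 26 genes for nucleotide synthesis 5 rose and 0 fell, led by Dck at 2.91 and by the ribonucleotide reductase subunits Rrm2 at 2.74 and Rrm1 at 1.93. In the list of histones and chromatin 9 of 25 rose, with the histone chaperone Asf1b at 4.30 in the authors' deposited table and Ezh2, the Polycomb methyltransferase, at 1.83. Genes of cell cycle arrest were listed beside the proliferation genes. Of 28 arrest and p53 genes 7 rose and 0 fell, with Gdf15, a stress hormone, at 3.83 and Cdkn1a (the CDK inhibitor p21) at 2.01. Protein production and turnover gave smaller values. Ribosome biogenesis and translation genes rose in 7 of 32 cases with a median of 1.23, proteasome genes in 4 of 27, of which the immunoproteasome subunits Psmb8 at 2.22 and Psmb10 at 1.39 were the highest, and unfolded protein and heat shock genes in 2 of 34, Trib3 at 1.64 and Atf4 at 1.05.

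Tubule injury markers rose in 14 of 20 cases and 0 fell, with a median of 2.41. Clu (clusterin), a secreted chaperone released by stressed tubules, had the highest logCPM of all listed loci at 12.72 and a log2 fold change of 4.14, a 17.6-fold rise. Tnfrsf12a (the TWEAK receptor) rose by 4.56 and Sox9, a transcription factor of repairing tubule cells, by 4.04. Osteopontin, another product of injured tubules, is present as 3 loci with the entry name OSTP_RAT and no symbol, which rose by 2.51, 2.44 and 1.85 at logCPM 4.45, 10.52 and 6.79. Keratins of simple epithelia rose moderately, Krt19 by 3.25, Krt8 by 2.44 and Krt18 by 2.37, and so did Krt14 by 3.83 and Krt5 by 3.39, which are keratins of basal cells. In all 6 of 16 keratins rose and 0 fell. Krt5 and Upk3a (1.36) were the 2 listed of 10 urothelium genes, and 8 were not listed. Krt5 is itself among the risen keratins, and Upk3a had a logCPM of 1.89 and an FDR of 0.0492. These 2 genes therefore do not show that urothelium markers moved with the keratins. The part of urothelium in the keratin result was not tested.

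Junction and calcium-binding genes followed in smaller number. Among 28 junction genes 4 rose, Cdh6 (a cadherin of the nephron's precursor epithelium) by 3.81, Cldn6 by 2.06, Cdh1 (E-cadherin) by 1.40 and Cldn7 by 1.14. In the S100 and annexin list 8 of 24 rose, S100a4 by 3.13 and Anxa1, an anti-inflammatory annexin, by 2.66. Among 44 kidney development genes Sox9, Cdh6 and the homeobox gene Gbx2 rose and 0 fell. Gbx2 had a log2 fold change of 7.24 at a logCPM of only -0.99 in the authors' deposited table, which makes its size uncertain. The patterning genes of the metanephric field such as Pax2, Six2 and Wt1 were not listed on day 2.

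Few genes of mature tubule function passed the threshold. Of 48 proximal tubule genes 2 rose and 1 fell. G6pc, the last enzyme of glucose output, fell by 2.54 at a logCPM of 8.73, while Dpep1, a brush border dipeptidase, rose by 1.44 and Slc17a1, a phosphate and urate carrier, by 1.41. Of 44 genes of later nephron segments, from the loop to the collecting duct, 0 rose and 2 fell, Bsnd (barttin, a chloride channel subunit) by 1.67 and Ptger3 (a prostaglandin E receptor) by 1.64. On day 5, against the same sham libraries, 16 genes of that list fell and 1 rose. Mitochondrial respiration (40 genes) and cholesterol synthesis (24 genes) had 0 listed members, as did the podocyte list of 14, and of 41 fatty acid oxidation genes Acsl4 alone was listed, with a rise of 1.03. In glycolysis and gluconeogenesis 2 of 34 genes rose, Hk3 (the hexokinase of myeloid cells) by 2.99 and G6pdx by 1.64, and G6pc was the 1 that fell. Absence from the table does not show that these genes held their level: at a logCPM of 6 or more the smallest listed fall was 1.47, against 0.95 for the smallest listed rise.

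The 41 symbols that fell had a median of -2.06, and 12 of them had a logCPM of 5 or more. Those 12 include Oxct1 (ketone body use) at -1.47 with a logCPM of 9.38, Dnase1, the kidney's secreted nuclease, at -2.37 with 9.31, and Ces1d, a carboxylesterase, at -2.06 with 8.19. Dio1, which activates thyroid hormone, was at -1.85, Cbs of sulphur amino acid metabolism at -1.90, and Lpl, lipoprotein lipase, at -1.30. Casr (the calcium-sensing receptor) fell by 1.36 and Slc26a7 (an anion exchanger of intercalated cells) by 1.63. Neither was in the list of later nephron segments, so its count of falls leaves them out. Arntl, the core clock activator BMAL1, fell by 2.20. The retinoic acid hydroxylase Cyp26a1 fell by 2.74 and the aldehyde dehydrogenase Aldh1a7 by 3.69. Of 45 genes of cytochrome P450 and conjugation 2 rose, Cyp1b1 by 2.02 and Ugt1a1 by 1.53, and 2 fell, Ces1d and Aldh1a7. Cyp26a1 was not in that list, nor was Cyp4f40, which stood at -1.74 with a logCPM of 6.97. The largest falls among symbols, Cacng5 at -5.36 and Bpifc at -5.29, lay at logCPM values of -2.24 and 0.33 and so rest on little signal.

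Immediate early genes, which cells switch on within minutes of stress or growth signals, rose in 15 of 31 cases with 0 falls and a median of 1.91. Egr2 had a value of 3.42 in the authors' deposited table, Fosl1 of 3.41, Egr1 of 3.15, Fos of 2.89 and Atf3 of 2.65. The list's share was above the 25.6% over all lists, and its median was close to the 1.88 of all symbols.

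Cytokine genes gave few rises, of which some were steep. Of 37 genes of interleukin-1, interleukin-6 and STAT3 signalling 9 rose and 0 fell. Il1r2, the decoy receptor that traps interleukin-1, had 7.15 at a logCPM of -1.40, and the interleukin-6 family ligand Lif had 4.72 with a logCPM of 3.61. Il1b rose by 2.44. Among 39 chemokines and receptors 7 rose, with Cxcl1 (which draws neutrophils) at 3.05, Ccr1 at 3.05 and Ccl2 (which draws monocytes) at 2.81. In the TNF and NF-kB list 9 of 37 rose, and besides Tnfrsf12a these included the regulators Nfkbiz at 2.20, Bcl3 at 2.14 and Tnfaip3 at 1.99, the NF-kB subunits Relb at 1.69 and Nfkb2 at 1.19, and the receptor Tnfrsf1b at 1.10. Interferon response genes rose in 7 of 41 cases, with Isg20 at 2.30 and Irf1 at 2.27, and innate sensors in 6 of 26, with Tlr13 at 3.54 and Cd14, the endotoxin coreceptor, at 3.42. Each of these 5 lists had a share listed near or below the 25.6% background. Their medians were 2.16 for the interleukin list, 2.81 for chemokines and 1.99 for TNF and NF-kB. For interferon response and innate sensors they were 1.66 and 1.75, beside 1.88 over all symbols. At the FDR of 0.01 the interleukin list kept 4 risen genes.

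Complement was broader. In that list 16 of 26 genes rose and 0 fell, with a median of 1.96. C3, on which the activation routes converge, rose by 4.75 at a logCPM of 8.89, and 2 more loci with the entry name CO3_RAT rose by 6.84 and 5.39. Hc (complement C5) rose by 3.19, Masp1 of the lectin route by 2.81, and the macrophage-made C1qb, C1qa and C1qc by 2.81, 2.38 and 2.33. A regulator, Serping1 (the C1 inhibitor), rose by 1.45.

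Acute phase and coagulation genes rose in 15 of 41 cases with 0 falls, and several of them were both steep and abundant. Serpina1b, an alpha-1-antitrypsin gene, had a log2 fold change of 7.24 at a logCPM of 7.44, Cp (ceruloplasmin, a copper-carrying ferroxidase) 4.97 at 8.85 and A2m 3.56 at 5.43. Alpha-1-antitrypsin belongs to a cluster of near-identical genes in mouse, so the assignment to the b copy is uncertain. Ltf (lactotransferrin, an iron binder of neutrophils and epithelia) rose by 6.22, and Lcn2 (neutrophil gelatinase-associated lipocalin) by 6.88, with a further locus of entry name NGAL_MOUSE at 7.64. Saa1, serum amyloid A, rose by 1.91, while a locus with the entry name SAA5_MESAU rose by 4.02. All 15 risen genes passed the FDR of 0.01.

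Among leukocyte lists the macrophages stood out by number. Macrophage and monocyte genes rose in 24 of 53 cases with 0 falls and a median of 2.03, including Cd68 at 3.28, the inhibitory Fc receptor Fcgr2b at 3.09, the lipid sensor Trem2 at 3.03, Gpnmb at 2.71, the scavenger receptors Mrc1 at 2.29 and Cd163 at 1.92, and the growth factor receptor Csf1r at 2.13. Of 20 neutrophil genes 4 rose, Il1r2, Lcn2, Trem1 (4.68) and Mmp9 (3.02), of which Lcn2 is also made by tubules. That share of 20% lay below the 25.6% over all lists. Il1r2 and Trem1 had a logCPM of only -1.40 and -1.37, and at a logCPM of 0 or more 2 of the 4 were left. Loci with the entry names S10A9_MOUSE and S10A8_RAT, the neutrophil calprotectin subunits, rose by 7.52 and 4.94, at logCPM -0.43 and 1.99. For T and NK cells 2 of 32 were listed, among them Cd3e at 1.60, and for B and plasma cells (15 genes) and for mast cells and platelets (13 genes) it was 0. Loci with the entry name CD72_MOUSE, a coreceptor of B cells, rose by 5.71 and 5.44. Antigen presentation had 1 listed gene of 17, H2-DMa at 1.47. On day 5, over the same sham libraries, 37 macrophage genes and 8 T and NK cell genes were listed as risen.

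Matrix genes rose on day 2 with 0 falls in each of their lists, which is the usual case where 96.3% of symbol-bearing loci rose. The share listed was 41.7% for collagens and 34.5% for matrix glycoproteins, beside 25.6% over all lists. Near or below that background were collagen processing with 28%, matrix proteases and inhibitors with 23.5% and integrins and laminins with 20%. Of 36 collagens 15 rose with a median of 2.35. The fibrillar collagens Col1a1 and Col3a1 rose by 4.54 and 3.74 at logCPM values of 8.19 and 8.70, Col1a2 by 2.35, Col8a1 (of vessel walls) by 3.50, and the basement membrane chains Col4a1 and Col4a2 by 1.98 and 1.39. Loci named CO6A3_HUMAN, collagen VI alpha 3, added rises of 3.29, 3.19 and 2.51. All 15 collagens passed the FDR of 0.01. Of 25 collagen processing genes 7 rose, Adamts2, which trims procollagen, by 2.73 and the cross-linkers Loxl2 and Loxl1 by 2.11 and 1.94.

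Matrix glycoproteins rose in 19 of 55 cases (median 1.93), with Vcan (versican) at 3.32, Lum (lumican) at 3.22 and Fn1 (fibronectin) at 3.18. Fmod, fibromodulin, which binds collagen fibrils, rose by 2.56. Of 35 integrins and laminins 7 rose, among them Itgb4 at 1.61 and Lama2 at 1.54. Matrix proteases and their inhibitors rose in 12 of 51 cases, Timp1 by 4.20, Mmp9 by 3.02, Adam12 by 2.70 and the membrane-bound collagenase Mmp14 by 2.58.

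Contractile and fibroblast genes rose in 20 of 44 cases with 0 falls and a median of 1.69. Tagln (SM22) had 3.31 in the authors' deposited table, Des (desmin) 2.95, Acta2 (smooth muscle actin) 2.75 and Fap (fibroblast activation protein) 2.17, and non-muscle myosin Myh9 rose by 1.59 at a logCPM of 10.53. In the TGF-beta and BMP list 8 of 47 rose, with the activin subunit Inhbb at 3.78, Tgfb2 at 1.44 and Tgfb1 at 1.41. YAP targets and CCN genes rose in 7 of 24 cases, Ankrd1 by 3.70, Ctgf by 2.17 and Cyr61 by 1.93. Ligands and receptors of other developmental routes were seldom listed, 2 of 51 for Wnt (Ror2 at 2.69 and Sfrp4 at 2.15), 6 of 52 for Notch, hedgehog and axon guidance (Gli2 at 2.13), and 5 of 61 growth factors, led by Nrg1 (neuregulin) at 2.81. Endothelial genes rose in 5 of 27 cases, and Icam1 and Selp, the leukocyte adhesion molecules, led with 3.44 and 2.92. The share listed was 18.5% for endothelial genes, 17.0% for TGF-beta and BMP and 29.2% for YAP targets and CCN genes, beside 25.6% over all lists. Icam1 had the second lowest FDR among loci with a symbol, 1.31e-06.

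Metal handling produced the lowest error rate in the table. Mt2 (metallothionein 2, which binds zinc and copper) rose by 6.04 with an FDR of 3.02e-07, and Mt1 rose by 2.56. With the ferric reductase Steap4 at 5.39, Srxn1 at 2.12, Trf (transferrin) at 2.10 and 2 more genes, 7 of 32 antioxidant and iron genes rose and 0 fell. The hypoxia list had 1 listed gene of 21, Angptl4 at 3.83. In the list of renin-angiotensin, prostaglandin and nitric oxide genes 2 of 35 rose, Agt (angiotensinogen) by 2.98 and Ace (angiotensin-converting enzyme) by 2.62, while Ptger3 fell. Of 21 genes of other tissues that a dissected kidney can carry, Cidec, a lipid droplet protein of fat cells, was listed, at 3.65.

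Outside the lists, some of the largest changes belonged to genes with little known role in kidney. Acrv1, an acrosomal protein of sperm, had the highest value of any symbol with 7.39 at a logCPM of -0.44. At logCPM of 0 or more the highest after Serpina1b were Gm4926 (6.91), Lcn2, Igsf23 (6.66), Sbsn (suprabasin, of stratified epithelium, 6.53) and Timd4 (a phosphatidylserine receptor of macrophages, 6.38). Sphk1, sphingosine kinase, rose by 5.80 and H19, an imprinted fetal RNA, by 5.60. Unnamed loci went further. Locus 56210 rose by 9.22 at a logCPM of 5.98 and an FDR of 1.17e-05, and locus 56211, next in number, rose by 8.54. The largest rise of all was 10.61, at locus 167434, and the deepest fall was -8.65, at locus 825405. Among loci with an entry name alone the deepest fall was at a locus named ATP6_MOUSE, after the mitochondrially encoded ATP synthase subunit 6. It stood at -8.48 with a logCPM of 3.47 and an FDR of 0.0122. Of the 40 mitochondrial respiration genes 0 were listed, and whether this locus stands for the mitochondrial gene itself was not tested.

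The day 2 response was then set beside that of C57BL/6J mice on day 2, with mouse UUO day 2 libraries from animals of 10.1 weeks and mouse sham libraries at 14, 7 and 9.4 weeks. Acomys entries are numbered loci and mouse entries are genes, so species and the reference used for it cannot be told apart. Of the 1121 Acomys symbols, 729 were also listed in mouse, which is 65.0% of the Acomys symbols and 18.6% of the 3915 mouse genes. Of these, 685 rose in both species, or 63.4% of the Acomys rises and 30.0% of the mouse rises. Only 17 fell in both, or 41.5% of the Acomys falls and 1.04% of the mouse falls. The mouse table held 1633 falls, against the 41 Acomys symbols that fell.

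List by list the rises were shared more than the falls. The centromere and checkpoint list had 42 rises in Acomys and 40 in mouse, and the collagens 15 rises and 0 falls in Acomys, against 16 rises and 6 falls in mouse. Proximal tubule genes had 2 rises and 1 fall in Acomys, against 1 rise and 33 falls in mouse, and mitochondrial respiration 0 falls in Acomys, against 25 in mouse. For antigen presentation there was 1 rise in Acomys, against 14 in mouse. Because the tables leave out what missed the threshold, these counts are not a test of a difference between the species.

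**Figure D3:**
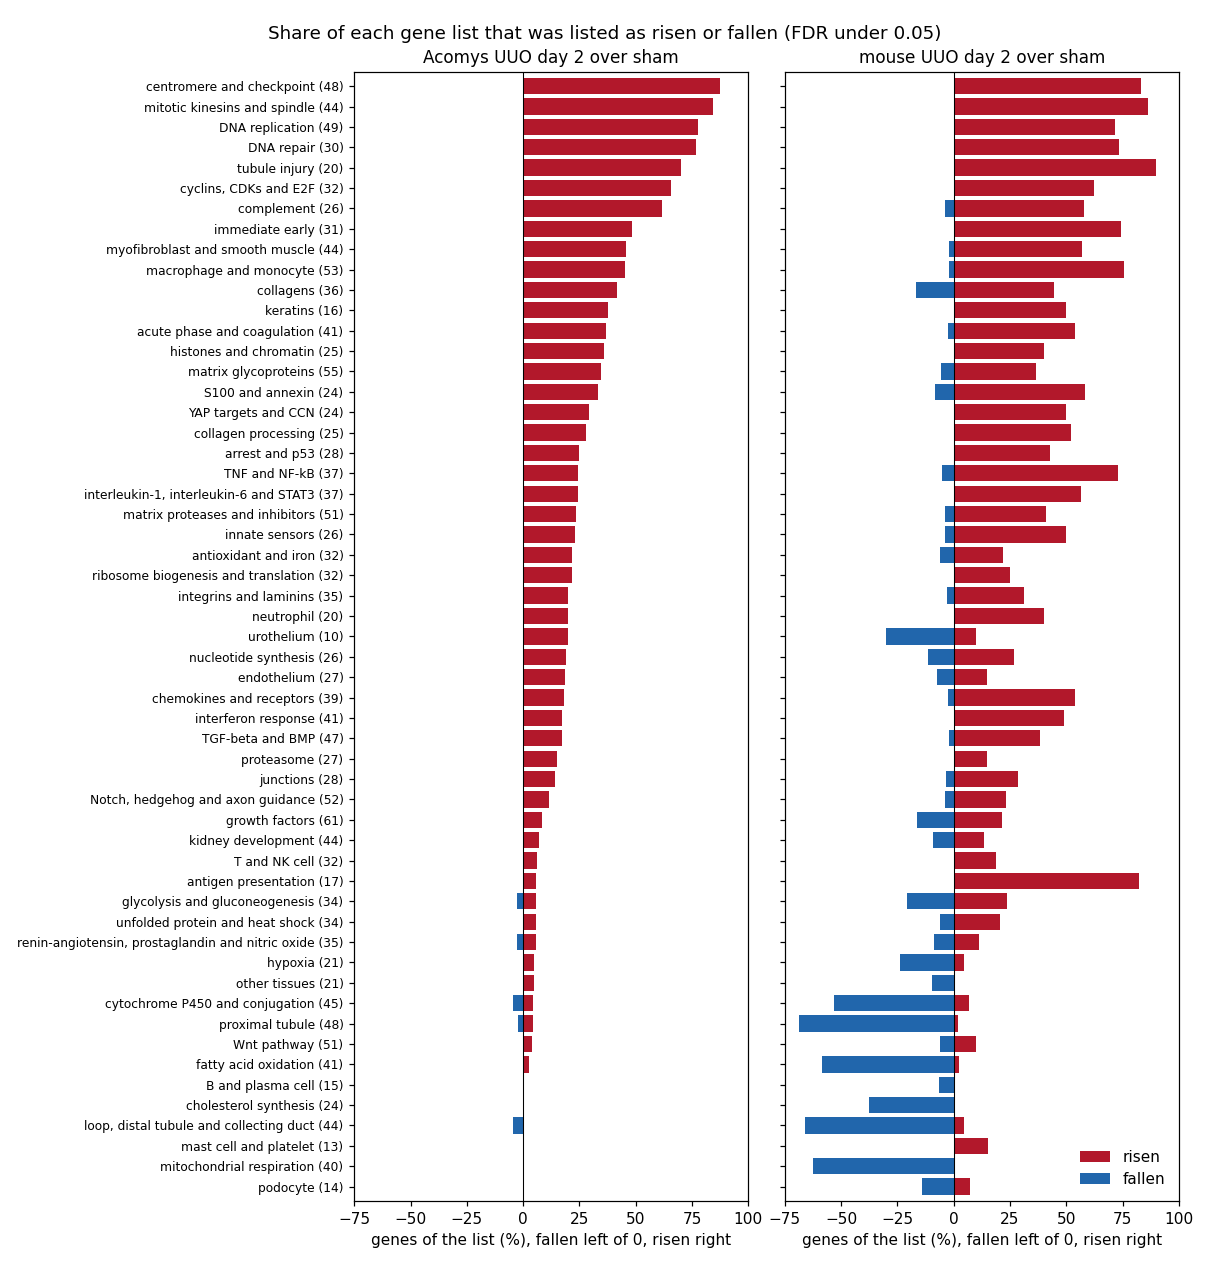
Percentage of each of the 55 gene lists (number of genes in brackets) that was listed as risen, to the right of 0, or fallen, to the left, in Acomys UUO day 2 over sham (left panel) and mouse UUO day 2 over sham (right panel), sorted by the Acomys rises. Cell cycle lists lead in the Acomys panel, the tubule injury list has the largest share risen in the mouse panel, and the falls of the tubule, P450, fatty acid and respiration lists at the bottom are present in the mouse panel and nearly missing in the Acomys panel.

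The difference of the log2 fold changes, Acomys minus mouse, was tested for each of the 729 shared symbols with a two-sided normal test whose errors were rebuilt from the fold changes and FDRs and are upper bounds. After Benjamini-Hochberg adjustment 25 symbols differed, which is 3.43% of those tested, 21 with the higher value in Acomys and 4 with the lower. Of 27 symbols with opposite directions, 24 rose in Acomys and fell in mouse, 3 fell in Acomys and rose in mouse, and 23 of the 27 passed. The remaining 2 that passed rose in both species. With errors built this way, 2 fold changes of opposite sign, each listed at FDR under 0.05, always differ before adjustment. The passing of the 23 therefore mostly restates that they were listed with opposite directions.

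Rarres2 gave a clear contrast, at a logCPM of 6.85 in Acomys and 4.62 in mouse. Rarres2 (chemerin, an adipokine that draws leukocytes) rose by 2.93 in Acomys and stood at -2.06 in mouse, a difference of 4.99 ± 0.92 (upper bound of the standard error, adjusted p = 4.59e-05, normal test over all shared symbols). Ace and Dpep1, both enzymes of the brush border, had 2.62 and 1.44 in Acomys, against -1.01 and -2.86 in mouse, with adjusted p-values of 0.000852 and 5.22e-05. Fmod was at 2.56 in Acomys and at -1.55 in mouse (adjusted p = 0.000377), and Ttr (transthyretin, a carrier of thyroid hormone and retinol) at 1.28 in Acomys and at -3.73 in mouse (adjusted p = 0.000847).

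In the other direction, serum amyloid Saa1 had 1.91 in Acomys, against 9.51 in mouse (adjusted p = 0.0334), and the interleukin-1 receptor antagonist Il1rn had 1.69 in Acomys, against 6.97 in mouse (adjusted p = 0.0403). The Acomys locus named SAA5_MESAU, which rose by 4.02, carries no symbol and did not enter the test. Vmp1, an autophagy protein, was at -4.07 in Acomys and at 0.84 in mouse (adjusted p = 0.000254), and Bpifc at -5.29 in Acomys and at 2.25 in mouse (adjusted p = 0.00277). The Acomys Vmp1 locus had a logCPM of 1.95, against 7.46 for the mouse gene, so the signal behind the locus differs from that behind the gene. None of the members of the replication, repair, spindle, centromere, cyclin, macrophage and collagen lists that were shared passed the test. The upper-bound errors had a median of 0.90 over the 729 shared symbols, so moderate differences between 2 rises could be missed. The missing calls therefore do not show that the species agree. Over the 38 shared centromere and checkpoint genes the median was 3.20 in Acomys and 2.54 in mouse, and over the 13 shared collagens it was 2.20 in Acomys and 1.81 in mouse.

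**Figure D4:**
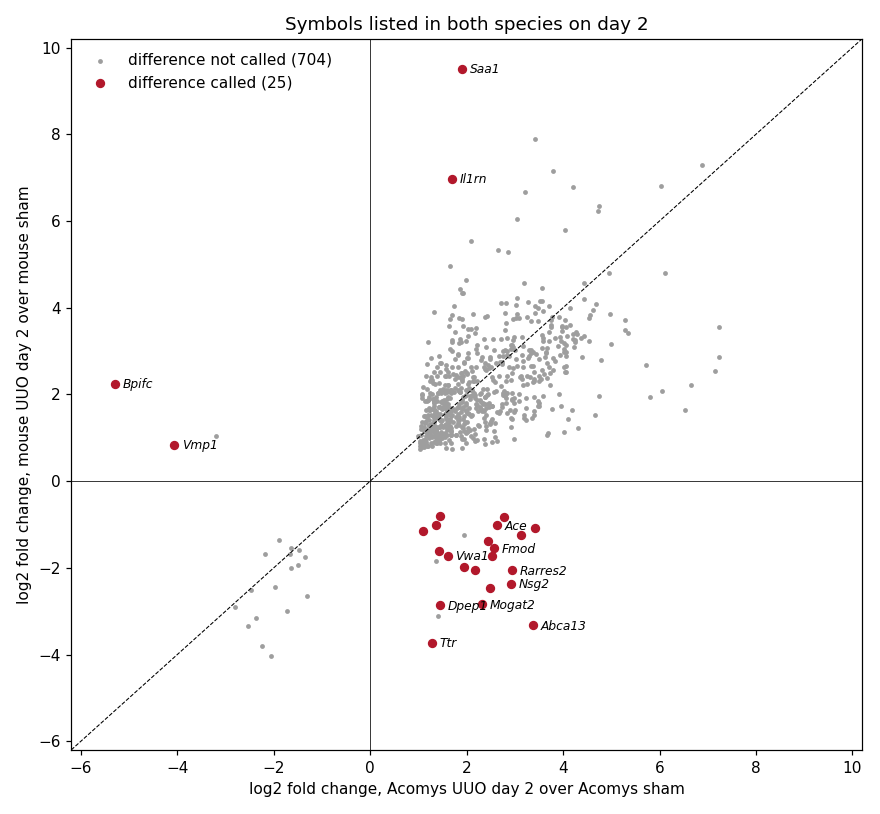
Log2 fold change of Acomys UUO day 2 over Acomys sham (horizontal axis) against mouse UUO day 2 over mouse sham (vertical axis) for the 729 symbols listed in both, with the 25 whose difference passed the test in red and the dashed line marking equal values. Most symbols lie in the upper right, where both rose, and most red points lie in the lower right, where Acomys rose and mouse fell.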

How the data were processed

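Kidney RNA of 3 Acomys UUO day 2 and 3 Acomys sham libraries was sequenced. The submitters' processing notes name Salmon, edgeR and the mouse build mm9, without versions; for the Acomys reference, filters and depth the sources used here give nothing. Per the file headers, the authors deposited a log fold change, read here as log2 because edgeR writes log2, a logCPM (log2 of mean CPM over the authors' fit) and an FDR. Every deposited row has an authors' FDR, their adjusted p-value, under 0.05. Table names give the direction as obstructed over sham. Nothing was refitted. Lists were matched to the authors' symbols by Entrez ID. Named genes were, per list, up to 6 highest rises and 4 deepest falls and members needed to describe a role, the 15 highest and lowest symbols and species differences, and the 10 highest and lowest entry names, logCPM and FDR values. The share of listed loci that rose has an exact 95% interval. The species difference used errors of the size of the fold change over the normal quantile of its FDR, in place of an unknown p, and Benjamini-Hochberg adjustment (scipy 1.17.1, statsmodels 0.14.6), and was tested on simulated data. Alternatives were stricter FDR, fold change, logCPM and annotation limits. The members and lists were chosen with earlier results of these data known. Some genes among those counted are not reported here by name.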

Additional observations from a re-analysis of the deposited data

Results flagged for a closer look

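The results below were picked out because the same contrast, obstruction day 2 over sham, gave log2 fold changes in Acomys and mouse that differed by a test of the difference itself (normal test with upper-bound errors, Benjamini-Hochberg adjusted over 729 symbols). Values are Acomys minus mouse. The largest positive differences were 6.69 for Abca13, 5.29 for Nsg2, 5.15 for Mogat2, 5.01 for Ttr, 4.99 for Rarres2 and 4.96 for Ccdc180. They were followed by 4.50 for Arhgef39, 4.39 for Apobec2, 4.30 for Dpep1, 4.24 for D630023F18Rik, 4.24 for Cabp2, 4.11 for Fmod, 3.92 for Gpr179, 3.82 for Cd164l2, 3.63 for Ace and 3.33 for Vwa1. The smallest positive ones were 3.04 for Afmid, 2.36 for Tprkb, 2.24 for Tmem106a and 2.24 for Dnaja4. These symbols rose in Acomys and fell in mouse, and a listed pair of opposite sign always differs in this test before adjustment.

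Negative differences were -7.60 for Saa1, -7.53 for Bpifc, -5.28 for Il1rn and -4.91 for Vmp1. Saa1 and Il1rn rose in both species, less in Acomys. Among the 25 symbols, Abca13 had a logCPM of 4.21 in Acomys and 6.81 in mouse, while Nsg2 had 3.96 in Acomys and 0.77 in mouse, so the amount of signal behind a shared symbol differed between the species' references. Whether the Acomys locus and the mouse gene are the same gene was not tested.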

How the results depend on the processing

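Stricter FDR and logCPM limits removed falls faster than rises, and limits on the size of change did not: a log2 change of 1 or more left 1580 rises and 178 falls, and one of 2 or more kept 75.3% of falls and 55.1% of rises. At FDR under 0.01 there were 927 rises and 36 falls (96.3% risen), and at FDR under 0.001, 416 rises and 6 falls (98.6%). With a logCPM of 0 or more 84 falls were left (94.0% risen). Loci with a symbol gave 41 falls (96.3%), and the same held for 1 locus per symbol and for symbols carried by 1 locus, since each symbol has 1 locus. Keeping symbols and entry names, a choice made after seeing the data, left 47 falls (96.3%). At FDR under 0.01 in both species 441 symbols rose in both and 2 fell in both, 8 rose in Acomys and fell in mouse, and 1 did the reverse. Rebuilding p over 10000 or 20000 assumed tests gave 8 or 9 symbols with the lower value in Acomys instead of 4. Of 61 lists, the count of risen genes moved by over 1.5 times in 26 at FDR under 0.01, in 48 at FDR under 0.001 and in 3 at a logCPM of 0 or more. No paired analysis was possible because the deposited tables hold no values per library, and for the same reason no replicate could be left out. Depth is unknown, so the falls that the data could have shown cannot be bounded.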

Other observations

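Several gene groups that no list covered were noticed after the values of the authors' deposited table were seen, and they are given as descriptions. Cytosolic ribosomal protein genes with a symbol rose in 32 of 78 cases and 0 fell, between 0.97 for Rpl19 and 2.22 for Rps12, with a median of 1.19. Rpl3, at a logCPM of 9.25, rose by 1.06. Loci with ribosomal entry names alone rose too, RS19_RAT by 3.70 at a logCPM of -1.12 and RS20_RAT by 2.62. At the FDR of 0.01 the count was 17. On day 5, over the same sham libraries, 8 were listed, and in mouse on day 2, 17 rose. Tubulins rose in 8 of 17 cases, Tubb5 by 1.89 and Tuba1a by 1.83, and in 4 at the FDR of 0.01.

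Genes of motile cilia rose in 13 of 38 cases with 0 falls, led by Ccdc180 at 2.49, Enkur at 2.36 and Ccdc40 at 2.28, with Foxj1, the master regulator of motile cilia, at 2.03 and a logCPM of 5.48. At the FDR of 0.01 the count was 6. On day 5 Foxj1 stood at 2.33 and Enkur at 3.47. Genes linked to erythroid cells and iron hormones were listed in 7 of 24 cases, with Tspo2 at 6.12, Erfe (erythroferrone, which lowers hepcidin) at 5.28, Kel (the Kell antigen) at 3.57 and Epor (the erythropoietin receptor) at 1.78. At the FDR of 0.01, or at a logCPM of 0 or more, 4 of these were left. Globin genes and Slc4a1 were not listed on day 2, and 3 loci named KELL_MOUSE rose by 5.75, 4.21 and 4.09. Of 20 apolipoprotein and lipid transport genes 7 rose and 1 fell, with Apoa4 at 3.75 and a logCPM of 8.60, Apob at 2.92 and Apoc3 at 1.98, against Lpl at -1.30, and 4 rises and 0 falls passed the FDR of 0.01. In the TIM family, whose best known kidney member is the injury marker Havcr1, Timd4 rose by 6.38 and Timd2 by 4.19, with further loci named TIMD2_MOUSE and TIMD2_RAT at 6.24 and 5.11. Havcr1 was not listed.

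A set of loci with entry names of murine and feline leukaemia viruses and some relatives (envelope, polymerase and gag proteins) numbered 9. Each rose, between 2.40 and 4.89, with a median of 3.30. Of them 6 were also listed on day 5. Loci named POL_SMRVH and POL_IPMAI, which also carry the POL name, were not in the set, and each rose by less than 2.40. Among all loci with an entry name alone 149 rose and 6 fell, so a shared rise is the usual case and does not set these loci apart. The loci of 1 entry name can differ in size of change: over 53 shared entry names the median gap between the highest and the lowest locus was 0.79, and the widest was 5.42, between the loci of CENPM.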
